A study of Homo sapiens with 6 samples.

Results

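The solute carrier genes expressed in HEY cells were followed upon PQBP1 knockdown. Solute carriers are membrane proteins that move amino acids, sugars, ions, metals, nucleotides and vitamins across the plasma membrane and across the membranes of organelles. Most of them act as exchangers, cotransporters or facilitators, and the families are numbered by sequence and substrate. In exchangers and cotransporters the gradient of one solute drives the movement of another. In tumour cells they are best known for glucose uptake, lactate export, glutamine and cystine uptake, and for the shuttling of metabolites into and out of mitochondria.

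The members were selected on their names and on their level. A gene was taken where its symbol starts with SLC and a digit or with SLCO, holds no hyphen and does not end in P and digits, and where its mean over the 6 samples was at least 1 FPKM (fragments adjusted for transcript length and library size). Of 379 matching names in the table of 32679 genes, 16 with a hyphen and 26 with the ending of a pseudogene were left out. Of the 337 that remained, 162 reached the minimum, and 175 did not, of which 20 were listed at 0 in every sample. Since the mean level chose the members, the levels are given as a description. The values nearest to the minimum were 0.96 FPKM for SLC22A3 and 0.962 for SLC35A3 outside it, and 1.02 for SLC30A4 and 1.06 for SLC45A4 inside it. For 4 members the mean of 1 group lay under the minimum: SLC16A6 and SLC30A4 reached it through the shPQBP1 samples, and SLC26A11 and SLC45A4 through the shNC samples. By name, 157 members are carriers and 5 are other proteins called after a carrier, such as the scaffold protein SLC9A3R1.

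HEY is an established human ovarian cancer cell line. By the labels, 3 samples carried a control hairpin (shNC) without treatment, and 3 carried a hairpin against PQBP1 (shPQBP1) with doxycycline at 1 µg/ml, all taken at day 3. Both hairpins had been brought in by lentivirus and the cells selected with puromycin. By these labels the hairpin against PQBP1 always came with doxycycline, so the parts of the hairpin and the drug cannot be told apart. The design calls the samples of a group biological triplicates, and no label ties a sample number to a culture or a day.

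The target was lower in every shPQBP1 sample. PQBP1, a nuclear protein that binds polyglutamine and takes part in splicing, stood at 7.18, 6.67 and 6.93 FPKM in the shNC samples and at 1.68, 1.72 and 1.44 upon knockdown, with a log2 fold change of -2.04 ± 0.102 (SE; limma adjusted p = 0.00154). The sums of FPKM over all genes ranged from 278286 to 318484 per sample, and the number of reads behind them is unknown. Sample 1 of shNC had the lowest correlations with the other samples (0.926 to 0.955 over all tested genes). Of the markers of ovarian carcinoma epithelium, PAX8, KRT7, KRT8, KRT18 and KRT19 reached a mean of 1 FPKM (5 of 8), while MUC16, WT1 and EPCAM did not. Mesenchymal markers were measured too (4 of 4, with VIM at 1111.87 FPKM or more), and the 4 fibroblast markers summed to at most 0.63 FPKM. The mesenchymal list summed to 1180 to 1300 FPKM in shNC and 1430 to 1530 in shPQBP1. FN1 stood at a mean of 43.4 FPKM in shNC and 144 in shPQBP1, and ZEB1 at 4.51 and 7.96. VIM stood at 1170 and 1300, and CDH2 at 21.5 and 23.5. The epithelial list summed to 208 to 245 FPKM in shNC and 220 to 245 in shPQBP1. The part of these marker differences in the members' changes was not tested. PTPRC of leukocytes was listed at 0 in every sample, and CD68 and CDH5 were the markers of leukocytes (1 of 3 in the table) and endothelium (1 of 4) at a mean of 1 FPKM or more.

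At an adjusted p under 0.05 (limma on log2(FPKM + 0.1), adjusted over all 11413 genes tested), 4 of the 162 members changed (2.47%), beside 2.91% of all tested genes: the phosphate importer SLC20A1 rose, and the mitochondrial carriers SLC25A22 and SLC25A6 and the lactate exporter SLC16A3 fell. The regions around the starts of these 4 genes are shown to place the changes on the genome, in RefSeq sequence of GRCh38.p14 from 250 bases before the annotated start to 50 after it, in the direction of the gene. They lie at chr2:112645689-112645988 on the plus strand (SLC20A1), chr11:798232-798531 on the minus strand (SLC25A22), chrX:1392064-1392363 on the minus strand (SLC25A6) and chr17:82228792-82229091 on the plus strand (SLC16A3). Capitals mark matches to the core of the hypoxia response element, ACGTG on either strand.
SLC20A1: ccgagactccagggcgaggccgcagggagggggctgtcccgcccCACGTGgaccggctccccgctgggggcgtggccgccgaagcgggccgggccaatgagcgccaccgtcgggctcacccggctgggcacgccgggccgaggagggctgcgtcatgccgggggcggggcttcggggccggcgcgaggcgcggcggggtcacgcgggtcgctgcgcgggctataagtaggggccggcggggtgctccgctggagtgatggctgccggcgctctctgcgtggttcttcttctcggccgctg
SLC25A22: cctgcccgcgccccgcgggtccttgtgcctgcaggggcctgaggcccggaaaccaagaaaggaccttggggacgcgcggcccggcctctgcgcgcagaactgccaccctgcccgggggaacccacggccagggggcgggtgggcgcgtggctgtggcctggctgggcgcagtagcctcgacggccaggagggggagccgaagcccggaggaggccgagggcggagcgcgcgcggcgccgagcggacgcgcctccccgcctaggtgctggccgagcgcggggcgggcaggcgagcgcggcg
SLC25A6: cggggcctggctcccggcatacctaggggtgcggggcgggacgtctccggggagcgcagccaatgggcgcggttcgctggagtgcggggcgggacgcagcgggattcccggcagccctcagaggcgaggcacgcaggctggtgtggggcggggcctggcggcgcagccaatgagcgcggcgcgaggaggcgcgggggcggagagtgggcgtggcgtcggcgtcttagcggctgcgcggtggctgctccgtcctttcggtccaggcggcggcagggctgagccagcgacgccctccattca
SLC16A3: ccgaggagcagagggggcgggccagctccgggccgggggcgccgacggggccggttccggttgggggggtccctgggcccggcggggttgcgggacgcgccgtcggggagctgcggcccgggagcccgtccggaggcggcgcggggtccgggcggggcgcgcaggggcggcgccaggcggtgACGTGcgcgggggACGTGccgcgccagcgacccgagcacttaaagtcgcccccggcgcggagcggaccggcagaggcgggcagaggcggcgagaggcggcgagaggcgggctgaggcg
All 4 windows are rich in G and C, with a GC content of 77.7% for SLC20A1, 79.0% for SLC25A22, 75.7% for SLC25A6 and 82.7% for SLC16A3, against a median of 58.7% over the 35116 start regions in the table. SLC20A1 and SLC16A3 each hold 2 matches to ACGTG, which in SLC20A1 are the 2 strands of the palindrome CACGTG. That motif occurs in 21.4% of all start regions of the same length. The C/EBP-ATF response element TGATGNAA (3.62% of all start regions, both strands) and the AP-1 site TGANTCA (7.71%) are in none of the 4 windows. These matches are letters in a sequence and were not measured as binding.

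The mean level of the members ranged from 1.02 to 233 FPKM. SLC25A5, an ADP/ATP translocase of the inner mitochondrial membrane, stood first with a mean of 233 FPKM and held 14.5% of the FPKM of all members. Its 6 values, 275.63, 231.08 and 223.49 in shNC and 214.4, 226.65 and 226.69 in shPQBP1, all lay above those of the next gene. SLC20A1 (mean 75.4 FPKM), SLC25A6 (70.0; another ADP/ATP translocase), SLC25A3 (59.9; the mitochondrial phosphate carrier), SLC39A7 (54.3; a zinc transporter of the endoplasmic reticulum), SLC38A2 (51.2), SLC7A5 (45.7) and SLC1A5 (42.1) followed. Each of these overlapped its neighbour in that order over the 6 samples, although genes further apart in the order need not overlap: all values of SLC20A1 lay above those of SLC7A5 and SLC1A5. The first 8 members held 39.2% of the members' FPKM and the 34 members at a mean of 10 or more held 67.5%, while the 88 members under a mean of 5 held 14.5%. The median member stood at 4.28 FPKM, against 5.54 for all tested genes. The members took 0.524% to 0.542% of all FPKM in the shNC samples and 0.554% to 0.583% in the shPQBP1 samples, with sums of 1622 ± 46.6 and 1600 ± 18.6 FPKM (SD, n = 3 each). The sum of all tested genes was 303000 ± 12000 FPKM in shNC and 279800 ± 4560 in shPQBP1, so the higher share came with a lower total.

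**Figure D1:**
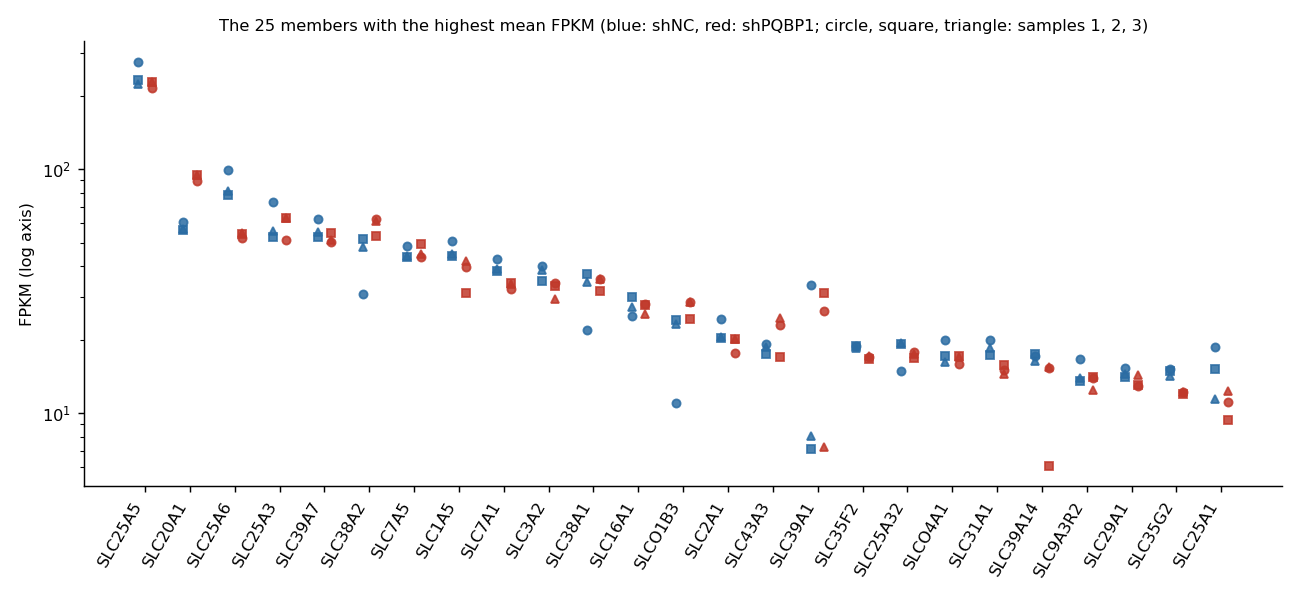
FPKM of the 25 members with the highest mean, on a log axis, with 1 point per sample (blue shNC, red shPQBP1). SLC25A5 lies apart from the rest, the points of SLC20A1 and SLC25A6 split by group in opposite directions, and SLC39A1 splits within both groups.

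The question of the comparison was which carriers differ in transcript level when PQBP1 is depleted. At an adjusted p under 0.05, 4 of 162 members were called, 1 higher and 3 lower. Over all tested genes 2.91% were called, 1.73% higher and 1.18% lower, so the count among the members was near the background. At an unadjusted p under 0.05, 18 members were higher and 20 lower, against 11.9% and 11.7% of all tested genes. The 3 shPQBP1 values lay wholly above the 3 shNC values in 27 members and wholly below them in 31, against 17.3% and 17.1% of all tested genes. More than 2-fold differences with p under 0.05 before adjustment were found in 2 members, SLC16A6 and SLC35E1, against 1.52% of all tested genes. SLC16A6 became a member only through its shPQBP1 samples, so its place in this count is not independent of the selection. The median log2 fold change of the members was 0.002, with 82 estimates above 0 and 80 below, beside 0.021 for all tested genes. In the bulk RNA, fewer cells with a transcript and less transcript per cell cannot be told apart.

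SLC20A1, the sodium-dependent importer of inorganic phosphate at the plasma membrane (ENSG00000144136), rose. It stood at 60.45, 56.32 and 56.79 FPKM in shNC and at 89.35, 94.63 and 94.93 in shPQBP1, so the groups did not overlap. The log2 fold change was 0.68 ± 0.066 (SE; limma adjusted p = 0.00983), and the exact permutation test gave p = 0.1, as for the other 3 called members, the smallest that 3 against 3 samples allow. Leaving out each sample gave log2 fold changes of 0.66 to 0.72 with adjusted p of 0.00872 to 0.0757, under 0.05 in 2 of the 6 fits. Its paralog SLC20A2, which imports phosphate as well, had a log2 fold change of 0.15, and XPR1, the phosphate exporter, one of 0.46 (limma adjusted p = 0.157) that was 0.29 without sample 1 of shNC and 0.21 after the GC correction described below. Among the 19 inorganic ion carriers SLC20A1 had the highest level, and the sum of the group was 127 ± 1.18 FPKM in shNC and 161 ± 3.95 in shPQBP1 (SD, n = 3 each). Without SLC20A1 the other 18 summed to 69.3 ± 3.03 and 68.3 ± 1.07 FPKM, and the median log2 fold change of all 19 was 0.00, with 8 estimates above 0 and 11 below.

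SLC25A22, a glutamate carrier of the inner mitochondrial membrane (ENSG00000177542), fell. Its values were 4.97, 4.31 and 4.17 FPKM in shNC and 2.09, 2.54 and 2.21 in shPQBP1. The groups did not overlap, and the log2 fold change was -0.95 ± 0.119 (SE; limma adjusted p = 0.0191). It held at an adjusted p under 0.05 in 1 of the 6 fits that left out a sample (0.0271 without sample 1 of shNC, up to 0.108). Without sample 1 of shNC the log2 fold change was -0.87. The gene shares bases with PANO1 on the opposite strand, and no source used here says that reads were counted by strand, so reads of both cannot be told apart.

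SLC25A6, the ADP/ATP translocase second in level to SLC25A5 (ENSG00000169100), fell. It stood at 99.04, 78.6 and 81.05 FPKM in shNC and at 52.15, 54.04 and 54.83 in shPQBP1. The log2 fold change was -0.68 ± 0.103 (SE, limma adjusted p = 0.0296). Without sample 1 of shNC it was -0.57 (limma adjusted p = 0.014), and without another sample the limma adjusted p was up to 0.134. The other ADP/ATP translocases measured were SLC25A5, whose groups overlapped (log2 fold change -0.12, limma adjusted p = 0.434), and the low SLC25A4 (mean 3.2 FPKM, log2 fold change -0.21). The paralogs share long stretches of sequence and SLC25A6 lies in the pseudoautosomal region with copies on X and Y, and how reads that fit several copies were counted is not given in the sources used here. The 3 translocases are therefore uncertain to the extent that such reads were split.

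SLC16A3, the monocarboxylate transporter that exports lactate from glycolytic cells (ENSG00000141526), fell. Its values were 13.02, 10.79 and 11 FPKM in shNC and 8.04, 7.98 and 8.09 in shPQBP1, with no overlap between the groups. The log2 fold change of -0.52 ± 0.096 was just past the threshold (SE, limma adjusted p = 0.0499). Without sample 1 of shNC it was -0.43 (limma adjusted p = 0.0298), and without each of the others the limma adjusted p was 0.0886 to 0.179. SLC16A3 shares bases with CSNK1D on the opposite strand. SLC16A1, a widely expressed monocarboxylate transporter, stood at 25.09, 29.8 and 27.18 FPKM in shNC and at 27.9, 27.84 and 25.48 in shPQBP1, a log2 fold change of -0.01 ± 0.091 (limma adjusted p = 0.94), whose sign turned when some samples were left out. BSG, the chaperone that carries both transporters to the plasma membrane, had a log2 fold change of -0.38 (limma adjusted p = 0.219) that was -0.21 without sample 2 of shPQBP1 and -0.15 after the GC correction.

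**Figure D2:**
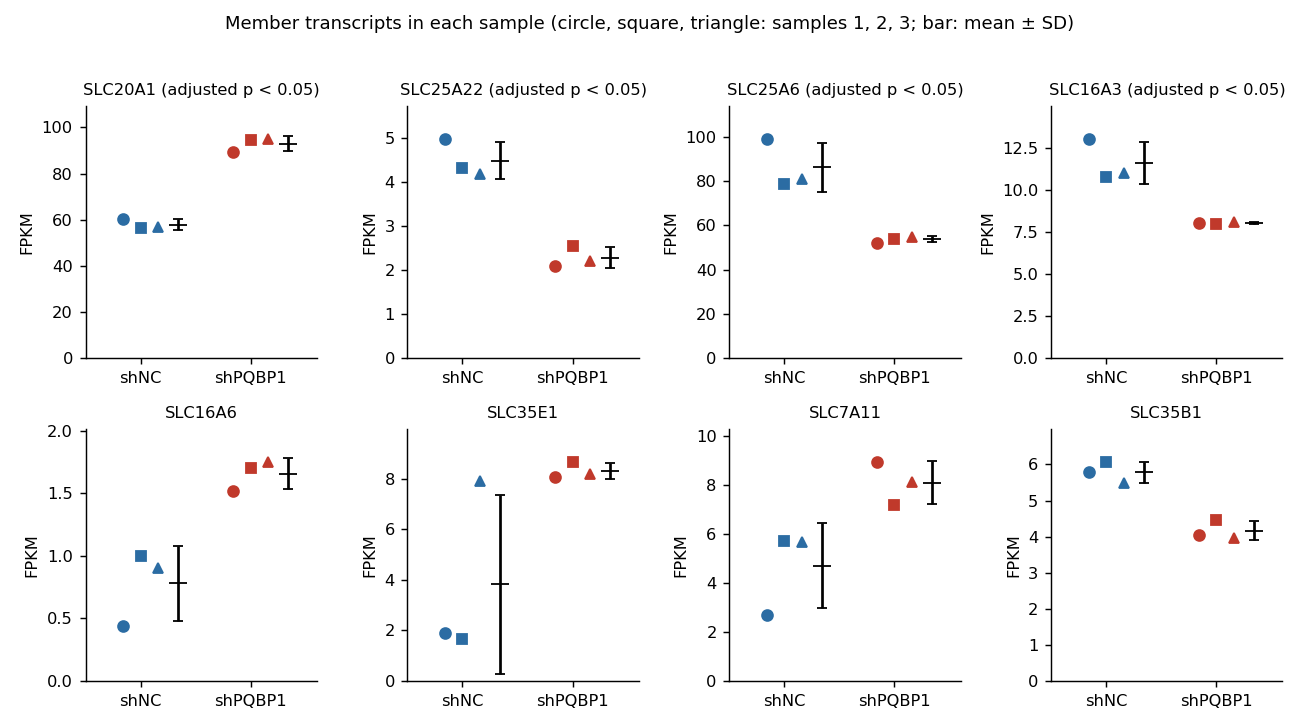
FPKM of 8 members in each sample, with the mean and SD of each group beside the points and every axis starting at 0. In the 4 members at an adjusted p under 0.05 (upper row) the groups are apart; in SLC35E1 sample 3 of shNC sits at 7.91 FPKM beside the shPQBP1 samples, and in SLC7A11 and SLC16A6 sample 1 of shNC sits lowest.

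The members with a fold change over 2 did not pass the adjusted threshold. SLC16A6, a member of the monocarboxylate transporter family, stood at 0.44, 1 and 0.9 FPKM in shNC and at 1.52, 1.7 and 1.75 in shPQBP1 (log2 fold change 1.06 ± 0.291; limma adjusted p = 0.109). Without sample 1 of shNC its log2 fold change was 0.74. Its mean reached the minimum only through the shPQBP1 samples, so its rise is given as a description. SLC35E1, an orphan member of the nucleotide sugar transporter family, had 1.88, 1.67 and 7.91 FPKM in shNC and 8.07, 8.66 and 8.18 in shPQBP1 (log2 fold change 1.47 ± 0.566; limma adjusted p = 0.191). The third shNC sample was close to the shPQBP1 samples, and without it the log2 fold change was 2.17 (limma adjusted p = 0.0125). A second coding gene of the annotation shares bases with SLC35E1 on the same strand, so its values may hold reads of both.

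The 33 mitochondrial carriers form the family that moves nucleotides, phosphate, amino acids and cofactors, mostly across the inner mitochondrial membrane. By point estimate 22 of the 33 were lower and 11 higher, while of all 11413 tested genes 5387 were lower and 6026 higher. The median log2 fold change of the 33 was -0.09, -0.067 without sample 1 of shNC and -0.074 after the GC correction. Of the 33, 2 fell at the adjusted threshold (SLC25A22 and SLC25A6), where 1.18% of all tested genes did so. Before adjustment (limma p under 0.05) the count was 5 lower and 2 higher. Over all tested genes those shares were 11.7% and 11.9%. The groups lay apart with shPQBP1 lower in 9 and higher in 2, where 17.1% and 17.3% of all tested genes did so; whether the family leans lower than other genes was not tested. SLC25A38, a glycine carrier needed for haem synthesis, had 14.67, 12.14 and 12.81 FPKM in shNC and 9.44, 10.98 and 9.43 in shPQBP1 (log2 fold change -0.40; limma adjusted p = 0.106). SLC25A10, the dicarboxylate carrier, had a log2 fold change of -0.39 (limma adjusted p = 0.141). SLC25A3, whose shNC sample 1 stood at 73.46 FPKM against 51.28 to 62.98 in the other 5 samples, had an estimate of -0.03 that turned to 0.12 without that sample. The sum over the carriers was 593 ± 50.5 FPKM in shNC and 526 ± 15.7 in shPQBP1 (SD, n = 3 each), and SLC25A5, SLC25A6 and SLC25A3 held most of it. Sample 1 of shNC had the highest sum, 650.8 FPKM, against 566.4 and 560.6 in the other shNC samples. The sum of all tested genes was lower in shPQBP1 too, at 279800 ± 4560 FPKM against 303000 ± 12000 in shNC.

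None of the 21 amino acid carriers passed the adjusted threshold. Before adjustment there were 2 higher and 4 lower, beside 11.9% and 11.7% of all tested genes. SLC7A11, the cystine/glutamate exchanger that feeds glutathione synthesis, had 2.69, 5.73 and 5.69 FPKM in shNC and 8.94, 7.19 and 8.13 in shPQBP1 (log2 fold change 0.84 ± 0.3; limma adjusted p = 0.167). The groups did not overlap, and without sample 1 of shNC, its lowest value, the log2 fold change was 0.49 (limma adjusted p = 0.0771). SLC3A2, the heavy chain that SLC7A11 and SLC7A5 need to reach the membrane, had 39.95, 34.91 and 38.69 FPKM in shNC and 34.1, 33.28 and 29.42 in shPQBP1 (log2 fold change -0.23; limma adjusted p = 0.206). SLC7A5, the importer of large neutral amino acids, overlapped between the groups at 43.66 to 48.45 and 43.57 to 49.22 FPKM (log2 fold change 0.02 ± 0.082; limma adjusted p = 0.909), and its sign turned with the sample left out. The glutamine transporters differed in sign, SLC38A2 at 0.47 (30.78, 51.74 and 48.17 FPKM in shNC; 62.72, 52.99 and 61.04 in shPQBP1; limma adjusted p = 0.23) and SLC1A5 at -0.32 (50.86, 43.97 and 44.84; 39.78, 30.99 and 41.92; limma adjusted p = 0.217). SLC38A2 was 0.23 without sample 1 of shNC and 0.20 after the GC correction, and SLC1A5 was -0.19 without sample 2 of shPQBP1 and -0.12 after the correction. SLC7A1, the cationic amino acid importer, was at 42.85, 38.33 and 39.04 FPKM and at 32.31, 34.08 and 33.98 (log2 fold change -0.26; limma adjusted p = 0.12). SLC43A1, another carrier of large neutral amino acids, had a log2 fold change of -0.43 (limma adjusted p = 0.117).

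Sugar carriers (11, grouped by family number) were not called at the adjusted threshold. Before adjustment 1 was higher and 2 were lower, beside 11.9% and 11.7% of all tested genes. SLC2A1, the basal glucose importer, had 24.3, 20.3 and 20.6 FPKM in shNC and 17.69, 20.22 and 20.17 in shPQBP1 (log2 fold change -0.16 ± 0.105; limma adjusted p = 0.362; -0.08 without sample 1 of shNC). SLC45A3 stood at -0.48 and SLC50A1, a sugar transporter, at 0.28 (limma adjusted p = 0.0979 and 0.188). The nucleotide sugar family SLC35, which loads the Golgi and the endoplasmic reticulum with the donors for glycosylation, had 22 members with 5 higher and 2 lower before adjustment, where 11.9% and 11.7% of all tested genes were, and 0 past the adjusted threshold. SLC35B1, the ATP/ADP exchanger of the endoplasmic reticulum, had 5.79, 6.07 and 5.49 FPKM in shNC and 4.05, 4.47 and 3.97 in shPQBP1 (log2 fold change -0.46 ± 0.09; limma adjusted p = 0.0537). SLC35B3, which carries the sulphate donor into the Golgi, went the other way, from 5.25, 6.47 and 6.48 FPKM to 9.2, 8.14 and 8.77 (log2 fold change 0.52 ± 0.113; limma adjusted p = 0.067). The nearly identical SLC35E2A and SLC35E2B (0.01 and 0.05) may share reads.

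In the other groups the adjusted threshold was passed by SLC20A1 and SLC16A3 alone. Among the inorganic ion carriers SLC12A7, a potassium-chloride cotransporter, had 3.77, 3.08 and 3.8 FPKM in shNC and 2.3, 2.36 and 1.91 in shPQBP1 (log2 fold change -0.67 ± 0.135; limma adjusted p = 0.0568). SLC26A2, a sulphate transporter, had a log2 fold change of 0.59 (limma adjusted p = 0.11). Without sample 1 of shNC it was 0.41 (limma adjusted p = 0.0486). Of the 22 metal carriers, 1 was higher and 2 lower before adjustment, beside 11.9% and 11.7% of all tested genes. SLC30A4, a zinc exporter into vesicles, stood at 0.69, 0.75 and 0.87 FPKM in shNC and 1.29, 1.35 and 1.16 in shPQBP1 (log2 fold change 0.65; limma adjusted p = 0.0889), and SLC39A13, a zinc transporter of the Golgi, at 6.17, 5.6 and 5.69 and at 3.26, 4.59 and 3.98 (log2 fold change -0.56; limma adjusted p = 0.0873). All 6 zinc exporters of the SLC30 family had point estimates above 0, though SLC30A4 reached the minimum mean only through its shPQBP1 samples. Their median of 0.20 was 0.05 without sample 1 of shNC and -0.02 after the GC correction. The 11 carriers of organic ions, peptides and vesicle contents had a median of 0.32, 0.09 without sample 1 of shNC and 0.12 after that correction; SLC17A5, the sialic acid exporter of lysosomes, and SLC22A15 stood at 0.39 and 0.43 (limma adjusted p = 0.108 and 0.115). None of the 12 carriers of vitamins, nucleosides, lipids and cofactors passed an unadjusted p of 0.05, the smallest p being that of SLC52A2, a riboflavin transporter (log2 fold change -0.60; limma adjusted p = 0.232), and SLC49A4 following (-0.21; limma adjusted p = 0.266). Of the 5 proteins named after a carrier, SLC4A1AP had 7.73, 8.67 and 7.89 FPKM in shNC and 10.68, 10.96 and 10 in shPQBP1 (log2 fold change 0.38; limma adjusted p = 0.0706), and SLC9A3R1 a log2 fold change of -0.68 (limma adjusted p = 0.112).

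**Figure D3:**
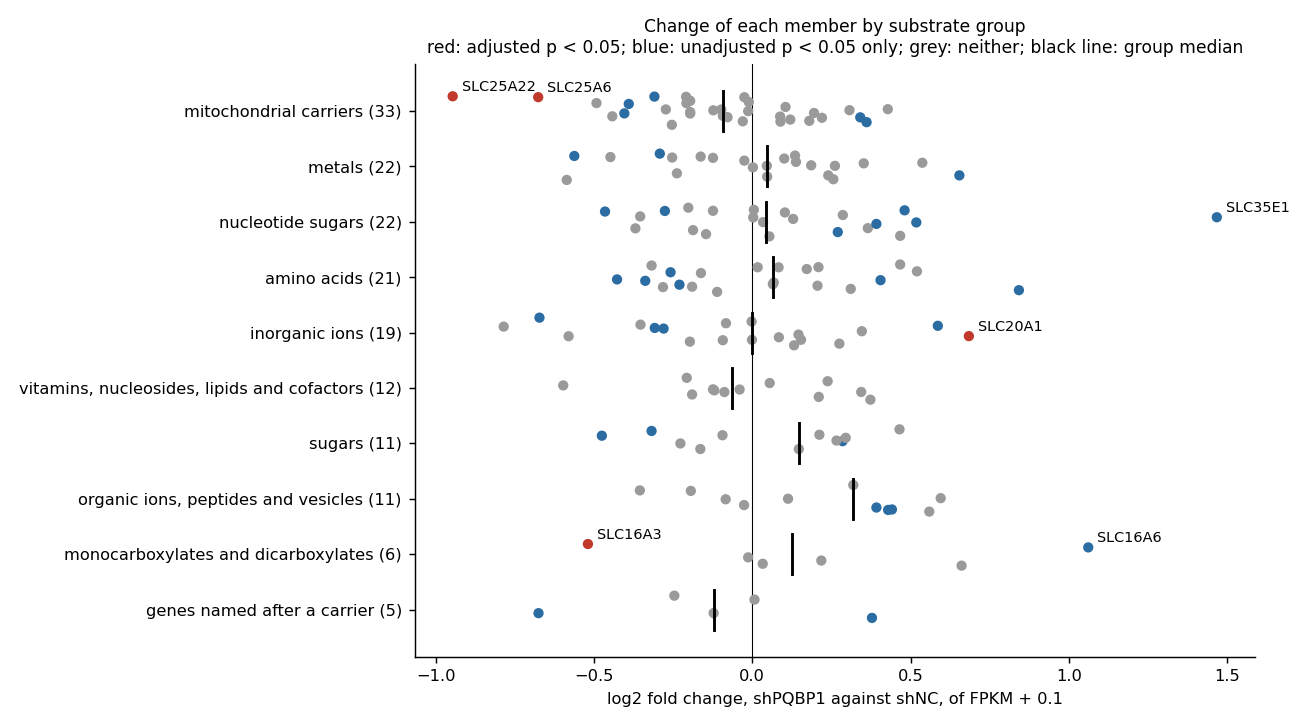
Log2 fold change of each of the 162 members, shPQBP1 against shNC, in rows by substrate, with the number of members in brackets. Red points passed an adjusted p of 0.05 and blue points an unadjusted p of 0.05, and the black line marks the median of each row, which ranges from -0.12 to 0.32.

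The differences went with the base composition of the transcripts. Across the 162 members the Spearman correlation of GC content (canonical transcript of GENCODE release 44) and log2 fold change was -0.592, and across the 11385 tested genes with such a transcript it was -0.459; genes of the same libraries are not independent and no test is given. Of the 54 members with the lowest GC content (33.8% to 43.1%), 12 were higher and 0 lower before adjustment, with a median log2 fold change of 0.25. Of the 54 with the highest (54.9% to 67.2%), 0 were higher and 13 lower, with a median of -0.20. Over all tested genes, of any GC content, 11.9% were higher and 11.7% lower. The shares of all tested genes within these GC ranges were not counted. Without sample 1 of shNC the correlation of the members was -0.396. A correction that removed from each sample its trend with GC content and with length brought it to -0.109 and the medians to 0.05 and -0.03.

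After that correction 11 members were past an adjusted p of 0.05, 5 higher and 6 lower, against 8.24% of the 11385 tested genes with a transcript. All 4 members called before were among them, with SLC20A1 at 0.70 (limma adjusted p = 0.00161), SLC25A6 at -0.47 (0.00646), SLC25A22 at -0.72 (0.00779) and SLC16A3 at -0.29 (0.0434). The 7 others were SLC35B3, SLC26A2, SLC7A11 and SLC4A1AP, higher, and SLC25A38, SLC12A7 and SLC7A1, lower, with adjusted p from 0.043 to 0.0491. SLC20A1 has a GC content of 46.3%, near the median of 47.9% of the members, whereas SLC25A22 (63.8%), SLC25A6 (60.7%) and SLC16A3 (64.7%) are GC-rich, and their decreases were smaller after the correction. Among the other members named above, several estimates shrank by more than 1.5 times. On the higher side these included SLC35B3 (0.29 after the correction), SLC26A2 (0.34), SLC7A11 (0.49), SLC30A4 (0.42) and SLC22A15 (0.28). On the lower side they included SLC3A2 (-0.05), SLC25A10 (-0.16), SLC2A1 (-0.08), SLC25A5 (-0.07), SLC43A1 (-0.24), SLC45A3 (-0.31), SLC39A13 (-0.34) and SLC52A2 (-0.36). Some estimates near 0 grew instead. SLC7A5 went from 0.02 to 0.189, SLC16A1 from -0.01 to -0.195 and SLC25A3 from -0.03 to -0.115 (limma adjusted p of 0.0601, 0.158 and 0.74 after the correction).

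**Figure D4:**
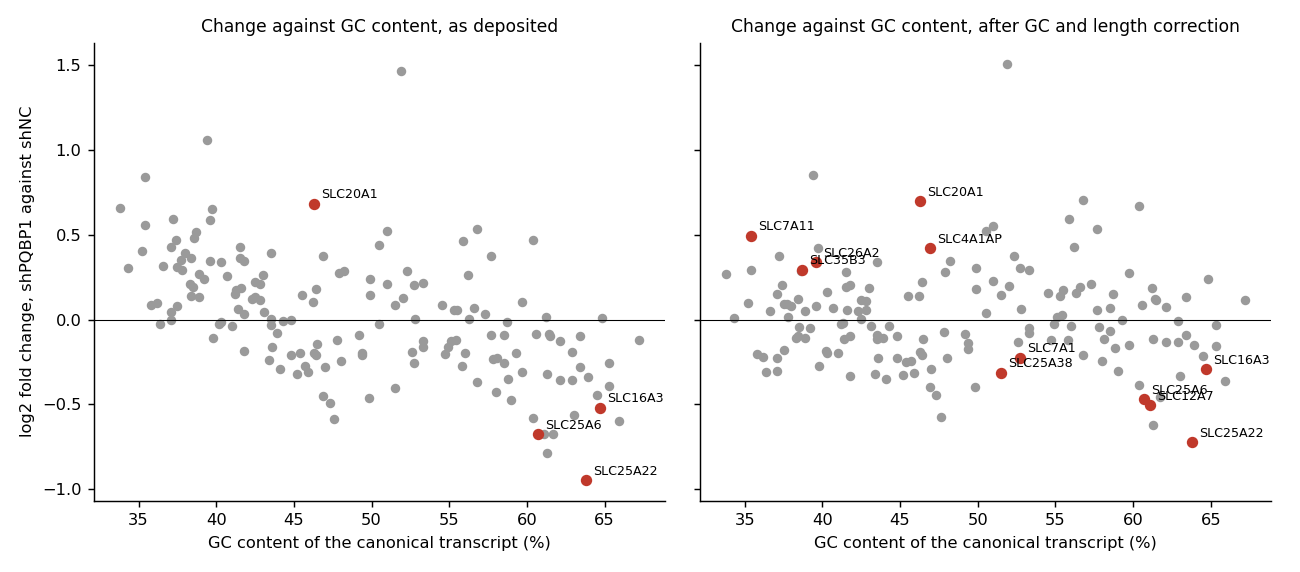
Log2 fold change of each member against the GC content of its transcript, before (left) and after (right) the correction for GC content and length, with members at an adjusted p under 0.05 in red. The downward slope on the left (Spearman -0.592) is mostly gone on the right (-0.109), and the number of red points goes from 4 to 11.

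In 22 members the values of 1 group spread by more than 2-fold, as in 13.9% of all tested genes. SLC39A1, a zinc importer, showed 33.38, 7.11 and 8.03 FPKM in shNC and 26.2, 30.94 and 7.24 in shPQBP1, so that both groups held high and low samples. SLC39A14, a zinc and iron importer, stood at 6.08 FPKM in sample 2 of shPQBP1 and at 15.32 to 17.54 in the other 5, and SLC25A43 at 2.45 in that same sample against 9.5 to 12.72. SLCO1B3, an uptake transporter best known from hepatocytes, stood at 11.05 FPKM in sample 1 of shNC and at 23.21 to 28.61 in the others. Its values and those of SLCO1B7 (mean 2.21 FPKM) are uncertain, since a read-through gene of the annotation spans both. None of these 5 passed an unadjusted p of 0.05.

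Related genes were counted at the same thresholds of p. Of 38 carriers of the same superfamily under other symbols, 31 were tested. At an unadjusted p under 0.05, 2 were higher and 7 lower, beside 11.9% and 11.7% of all tested genes. Whether they lean lower than other genes was not tested. The median log2 fold change was -0.12, and -0.035 after the GC correction. At an adjusted p under 0.05, 0 were higher and 1 lower. Among all tested genes 1.73% were higher and 1.18% lower at that threshold. The gene that fell was SV2A, a synaptic vesicle protein, from 7.58, 6.98 and 6.9 FPKM to 3.85, 4.63 and 4.36 (log2 fold change -0.73; limma adjusted p = 0.0235, and 0.0345 to 0.116 when each sample was left out, under 0.05 in 1 of the 6 fits). Of 19 partners and regulators of carriers, 15 were tested. Before adjustment 3 were higher and 0 lower, beside 11.9% and 11.7% of all tested genes. The median log2 fold change was 0.11, and at the adjusted threshold 1 was higher and 0 lower. That gene was TXNIP, an arrestin-domain protein that promotes the internalization of glucose transporters, which rose from 12.4, 11.6 and 13.42 FPKM to 23.59, 26.5 and 25.3 (log2 fold change 1.01 ± 0.089; limma adjusted p = 0.00803, and 0.0151 to 0.0664 when each sample was left out). Of 21 ABC transporters, which use ATP rather than gradients, 10 were tested and 0 passed the adjusted threshold in either direction. Before adjustment 1, ABCA2, was lower, beside 11.7% of all tested genes, and the median log2 fold change was 0.06.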

How the data were processed

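RNA was extracted with TRIzol from 6 HEY cell samples (3 shNC, 3 shPQBP1) and sequenced in pairs on an Illumina HiSeq instrument. Per the submitters' processing notes and the methods, the authors used HISAT2 (version 2.2.0) for mapping to hg38, SAMtools (version 1.9) for sorting, StringTie (version 1.3.0) for transcripts, and edgeR for their own comparison. The authors deposited FPKM per gene and sample, rounded to 2 decimals. The annotation release and the strand setting are not given in the sources used here. The 6 columns of the authors' comparison (fold changes, p and q values, calls) were not used. The table holds no read counts, and no step of whole reads was found in the low values, so the depth is unknown and no count test was run.

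The 11413 of 32679 genes that averaged 1 FPKM or more were tested on log2(FPKM + 0.1) by limma's lmFit and eBayes with a trend (two-sided, Benjamini-Hochberg over all of them; limma version 3.58.1 in R, version 4.3.3); such fold changes understate those of low genes. Single members were also tested with an exact permutation test (scipy, version 1.17.1). On simulated data the steps called genes with known changes. Those planted changes were larger than the change of any member, so detection at the members' sizes was not simulated. Sample numbers were not taken as pairs. The members, the lists and the substrate groups were chosen with earlier results of these data known. After the table was seen, 3 proteins named after a carrier were moved to their own group. The substrate groups follow the family number, with exceptions for single genes, so a group can hold members with another substrate or membrane. Named were members past an adjusted p of 0.05 or a 2-fold change, the 8 highest by level, the 2 of smallest p per substrate group, 8 carriers set by role, and list genes past an adjusted p of 0.05; the uneven members, those called after the GC correction and the relatives of called members were named after their values were seen. Alternatives were other scalings, filters, pseudocounts (1 and 0.01), no trend, the replicate block, a GC and length correction (natural splines, 5 degrees of freedom, GENCODE release 44) and each sample left out.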

Additional observations from a re-analysis of the deposited data

How the results depend on the processing

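With 3 samples a group, calls near the threshold depended on the settings. The count of 4 members at an adjusted p under 0.05 became 2 when every gene above 0 was tested. It was 2 with a minimum mean of 10 FPKM (where 34 members were tested) and 11 after the GC and length correction. With each sample left out it was 0 to 5, and 0 in each fit that left out a shPQBP1 sample. Without sample 3 of shNC the only call was SLC35E1, which was not among the 4, and without sample 1 of shNC SLC26A2 joined the 4. Quantile normalization gave 5, and median-of-ratios scaling and both pseudocounts gave the same 4 members; without the mean-variance trend there were 4 as well, with SLC30A4 (limma adjusted p = 0.0396) in place of SLC16A3 (0.0552). With a minimum mean of 10 FPKM, the 18 members higher at an unadjusted p became 1 and the 20 lower became 7. Only 34 members entered that fit. Of its 3661 genes, 412 were higher and 544 lower at an unadjusted p, and 211 passed the adjusted threshold. With each sample left out, the 18 higher became 8 to 18. The 2 members with a fold change over 2 became 0 with a minimum mean of 10 FPKM, 1 with a pseudocount of 1, 1 after the GC correction, and 0 to 3 with each sample left out. Over all tested genes 332 passed the adjusted threshold, and 30 (without sample 3 of shPQBP1) to 464 (without sample 1 of shNC).

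Same-numbered samples did not deviate together (correlations of -0.186, -0.138 and -0.0114), so the numbers were not taken as pairs. With the replicate block, 0 of all 11413 genes and so 0 members passed the adjusted threshold, 968 genes were higher and 872 lower at an unadjusted p (11 and 13 members), and the PQBP1 log2 fold change was -2.04 with a limma adjusted p of 0.0686.

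Leaving out a sample turned the sign of 40 of the 162 members, 0 of them at an unadjusted p under 0.05 in limma. Of the 31 members named by rule, 5 turned under some setting. SLC16A1 ranged from -0.073 to 0.051, SLC25A3 from -0.12 to 0.12 and SLC7A5 from -0.033 to 0.065 with each sample left out; SLC25A5 was 0.007 under quantile normalization and SLC39A7 0.017 after the GC correction. Quantile normalization moved the unadjusted split over all genes from 1353 higher and 1336 lower to 1168 and 1619. Where no cause is given, the cause was not tested. Unknown depth limits what can be said of members near 1 FPKM.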
